A study of Mus musculus with 6 samples.

Results

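The 3p products of the miR-30 family were followed in small RNA sequencing of extracellular vesicles (EVs) from mouse hepatocytes. Members were taken by name, as the rows for miR-30a, b, c-1, c-2, d and e that end in 3p, which gave 6 of the 474 miRNAs listed. Those that the results turn on are mmu-miR-30a-3p and mmu-miR-30c-2-3p. Extracellular vesicles are membrane-bound particles that cells release, and these came from primary hepatocytes, the main cells of the liver, of ApoE knockout mice. Loss of ApoE, a lipoprotein ligand that clears cholesterol from plasma, was shared by every animal, and the diet alone separated the groups: 3 libraries came from chow-fed animals (Chow-EV) and 3 from animals on a diet labelled HFHC (HFHC-EV). The labels number the biological replicates 1 to 3 in each diet, but they state neither the age of the mice nor how many stood behind a library, so p-values measure the spread between libraries. The title of the study names cholesterol efflux from foam cells, the lipid-laden macrophages of arterial plaques, as the process of interest, and miR-30a-3p is the member that the study followed up.

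A miRNA hairpin is cut to a duplex of a 5p and a 3p strand, and usually only the more stably loaded strand guides an Argonaute protein to its target mRNAs. Targets are recognised mainly through the seed, bases 2 to 8 of the mature strand. The miR-30 family is best known for its 5p strands, which share a single seed and are abundant in liver and kidney. The 3p strands are commonly the scarcer products, differ in seed and so read different targets.

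Mature sequences are shown because they decide which members can target alike and which could share reads. RefSeq (GRCm38.p6) gave them for 4 of the 6 members, and those of miR-30b-3p and miR-30d-3p are not printed. Capitals mark the seed, and each sequence runs 5′ to 3′.
miR-30a-3p: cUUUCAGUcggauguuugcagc
miR-30e-3p: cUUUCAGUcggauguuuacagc
miR-30c-2-3p: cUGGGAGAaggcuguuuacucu
miR-30c-1-3p: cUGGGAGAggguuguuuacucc
miR-30a-5p: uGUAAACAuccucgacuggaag
miR-30c-5p: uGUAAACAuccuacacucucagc

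The 4 members with a sequence thus fall into 2 seed groups, and the seeds of miR-30b-3p and miR-30d-3p were not compared. miR-30a-3p and miR-30e-3p carry UUUCAGU and are identical at 21 of 22 bases, the difference being G18A, with positions counted from 1 at the 5′ end of miR-30a-3p. miR-30c-2-3p and miR-30c-1-3p carry UGGGAGA and are identical at 19 of 22 bases. Between miR-30a-3p and miR-30c-2-3p 10 bases differ, 4 of them in the seed. None of these seeds is that of the 5p strands, GUAAACA. Of the 1679 mature mouse miRNAs in the RefSeq table, UUUCAGU occurs as a seed in 2, both of them members, and UGGGAGA in 3, the members and miR-6958-5p. That table held neither miR-30b-3p nor miR-30d-3p, so these counts leave them out.

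The hairpins lie in 3 neighbouring pairs on GRCm38, each on one strand. Mir30a (chromosome 1, 23272269 to 23272339, plus strand) overlaps no other annotated gene in GENCODE M21, and Mir30c-2 (chromosome 1, 23291701 to 23291784, plus strand), 19361 bases downstream, overlaps an exon of the lincRNA Gm27028. Mir30e (chromosome 4, 120772606 to 120772697, minus strand) and Mir30c-1 (chromosome 4, 120769534 to 120769622, minus strand) are 2983 bases apart in an intron of Nfyc, which encodes a subunit of the transcription factor NF-Y. On the opposite strand of Mir30e the annotation places Mir30f. Mir30d and Mir30b (chromosome 15, 68341208 to 68341289 and 68337415 to 68337510, minus strand) are 3697 bases apart and overlap exons of noncoding transcripts. The hairpins of the members on chromosome 1 are printed because the results turn on the reads of each strand, with the 3p product in capitals.
Mir30a: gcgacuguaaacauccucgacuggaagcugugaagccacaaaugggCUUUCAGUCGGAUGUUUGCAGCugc
Mir30c-2: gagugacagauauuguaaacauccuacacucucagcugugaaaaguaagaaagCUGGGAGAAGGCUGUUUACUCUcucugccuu

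Values are the authors' RPM, read counts scaled to a common total that also holds reads outside the listed miRNAs. One read was worth 0.0497 to 0.0523 RPM, so whole reads could be recovered, and the libraries held between 27673 and 65775 miRNA reads. The miRNA total was higher in every HFHC-EV library (2202 to 3441 RPM) than in any Chow-EV library (1375 to 2081 RPM). Libraries with the same number also resembled each other across the diets. Of the hepatocyte markers, miR-122-5p, which dominates the miRNAs of liver cells, took 0.689% and 0.581% of miRNA reads in the libraries numbered 1 and between 0.0304% and 0.0542% in the other 4. In Chow-EV the summed hepatocyte list (5 of 5 markers with reads) stood at 5.54 to 17.0 RPM, against 13.5 to 27.3 under HFHC. Its members differed: with chow and HFHC, miR-192-5p had 280 and 724 reads and miR-122-5p 242 and 306. miR-148a-3p had 5 and 8, miR-194-5p 21 and 21, and miR-193a-3p 4 and 2. Markers of other cells were also present: the erythroid list (3 of 3 with reads) ranged from 2.69 to 107 RPM with chow and from 11.2 to 142 RPM with HFHC, and its miR-451a reached 102 and 136 RPM in the libraries numbered 1. The leukocyte list (4 of 5 matched) stood at 3.53 to 7.99 and 1.36 to 6.10 RPM, the endothelial list (2 of 2) at 0.497 to 5.94 and 2.19 to 9.49, the mesenchymal and stellate list (4 of 5) at 0.103 to 1.84 and 1.77 to 3.86, and the epithelial and biliary list (3 of 5) at 0.155 to 1.74 and 0.262 to 0.991, in Chow-EV and HFHC-EV respectively. The part of these cells in the results below was not tested, and fewer vesicles of a kind and less of a miRNA per vesicle cannot be told apart.

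All 6 members were scarce, at 1 to 83 reads over the 6 libraries. miR-30a-3p was the most abundant, at rank 122 by mean RPM among the miRNAs listed, and miR-30c-2-3p was next at rank 188, while the other 4 ranked between 279 and 351. Together they made up 0.0491% of what was read as miRNA in Chow-EV, and 0.0506% of it in HFHC-EV. Their sum was therefore a like share of the miRNA reads under both diets, but its make-up was not: miR-30c-2-3p gave 27 of the 48 reads in Chow-EV (56.3%, exact Clopper-Pearson 95% interval 41.2 to 70.5) and 1 of 78 in HFHC-EV (1.28%, 0.0325 to 6.94), whereas miR-30a-3p gave 11 of 48 (22.9%, 12.03 to 37.3) and 72 of 78 (92.3%, 84.0 to 97.1). Within single libraries the share of miR-30a-3p among the 3p reads was 22.2%, 10% and 30% in Chow-EV and 100%, 100% and 80% in HFHC-EV, so the diets did not overlap. Intervals cover counting error only, since reads without molecular identifiers are not independent molecules.

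**Figure D1:**
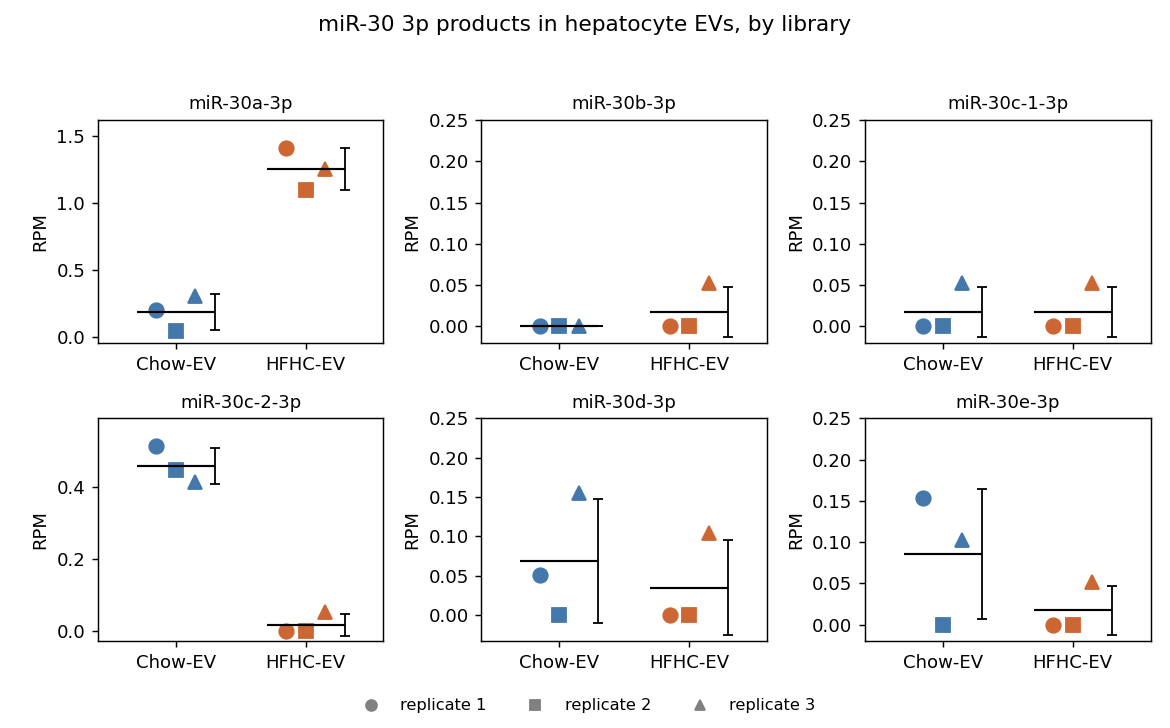
RPM of each of the 6 miR-30 3p products by library and diet, 1 panel per product, each with its own axis; symbols give the replicate number, the line is the mean and the bar its SD (n = 3). miR-30a-3p lies between 0.05 and 0.31 RPM in Chow-EV and between 1.094 and 1.408 in HFHC-EV, miR-30c-2-3p lies at 0.414 to 0.512 in Chow-EV and at 0 to 0.052 in HFHC-EV, and the other 4 overlap.

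miR-30a-3p, of the UUUCAGU seed group, was higher in HFHC-EV. It stood at 0.205, 0.05 and 0.31 RPM in Chow-EV replicates 1, 2 and 3 (4, 1 and 6 reads) and at 1.408, 1.094 and 1.256 RPM in HFHC-EV replicates 1, 2 and 3 (27, 21 and 24 reads). Every HFHC-EV library lay above every Chow-EV library, and 1 of the Chow-EV libraries held a single read. The means were 0.188 ± 0.131 and 1.25 ± 0.157 RPM (SD, n = 3 each). As reads over the diet's summed denominators, the ratio was 6.72 (counting 95% interval 3.54 to 14.1). The 3 HFHC-EV libraries varied by no more than counting error (variance over expectation 0.378, where counting alone gives 1 on average), and the Chow-EV libraries by slightly more (1.82). As a share of miRNA reads, which is free of the higher miRNA total of HFHC-EV, it was 0.0134%, 0.00361% and 0.0149% in Chow-EV and 0.0585%, 0.0497% and 0.0365% in HFHC-EV, again without overlap. Its rank within a library moved from 152, 169 and 161 to 86, 94 and 114.

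In limma-trend on log2(RPM + 1) across the 422 miRNAs with a read, the log2 fold change of miR-30a-3p was 0.93 (SE 0.145, Benjamini-Hochberg adjusted p = 0.0137). The scale understates the change of so low a miRNA. With pseudocounts of 0.1 and 10 RPM the log2 fold changes were 2.34 and 0.14. The call was lost when edgeR's quasi-likelihood method was run on recovered reads (log2 fold change 2.03, adjusted p = 0.164), without Chow-EV replicate 2 (limma adjusted p = 0.0505) and with the libraries numbered 1 or those numbered 2 both left out (limma adjusted p = 0.0751 and 0.119). The 2-sided exact permutation p over libraries was 0.1, the smallest that 3 against 3 can give. The study followed this miRNA up on these libraries, so the difference is a description and not independent evidence.

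miR-30e-3p, a seed mate that differs from miR-30a-3p at a single base, did not move with it. It had 3, 0 and 2 reads in Chow-EV and 0, 0 and 1 in HFHC-EV (5 against 1; counting 95% interval of the ratio of HFHC-EV to Chow-EV 0.00434 to 1.83). Its log2 fold change of −0.09 did not pass (limma adjusted p = 0.499), and at 6 reads only a very strong difference would have been detectable. Reads of such near-identical strands can be assigned to either, and the rule the authors used is not given in the sources here. Summing both rows, a check chosen after seeing the data, gave 16 reads with chow and 73 with HFHC, and 0.359, 0.05 and 0.413 RPM against 1.408, 1.094 and 1.308 RPM. The groups stayed apart in the sum, with a log2 fold change of 0.84 (SE 0.167, limma adjusted p = 0.0219).

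miR-30c-2-3p, of the UGGGAGA seed group, was lower in HFHC-EV. It stood at 0.512, 0.447 and 0.414 RPM in Chow-EV replicates 1, 2 and 3 (10, 9 and 8 reads) and at 0, 0 and 0.052 RPM in HFHC-EV replicates 1, 2 and 3, where its single read came from replicate 3. All Chow-EV libraries lay above all HFHC-EV libraries, although the latter held more miRNA reads. The means were 0.458 ± 0.0499 and 0.0173 ± 0.0300 RPM (SD, n = 3 each). With 27 reads against 1, the ratio of Chow-EV to HFHC-EV was 26.3 with a counting 95% interval of 4.34 to 1077. The Chow-EV libraries varied by no more than counting error (variance over expectation 0.106, an imprecise value from 3 libraries). The log2 fold change was −0.52 on the log2(RPM + 1) scale (SE 0.086, limma adjusted p = 0.0147) and −2.27 with a pseudocount of 0.1 RPM. The call was lost in edgeR (log2 fold change −5.01, adjusted p = 0.0656) and with the libraries numbered 1 or those numbered 2 both left out (log2 fold changes −0.48 and −0.51, limma adjusted p = 0.0697 and 0.119), and it held without each single library. The 2-sided exact permutation p was 0.1.

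The other members were at the limit of detection. miR-30c-1-3p, a seed mate of miR-30c-2-3p, had 1 read in each diet, both in a library numbered 3. Summed, miR-30c-1-3p and miR-30c-2-3p had 28 reads with chow and 2 with HFHC. miR-30d-3p had 1, 0 and 3 reads in Chow-EV and 0, 0 and 2 in HFHC-EV. miR-30b-3p had no read in Chow-EV, which allows a level of up to 0.0509 RPM when 3 reads over the diet are the floor, and 1 read in HFHC-EV replicate 3. For these 3 members limma's adjusted p lay between 0.590 and 1, and no difference was detectable at this depth.

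Of the 6 members, 1 rose and 1 fell in limma, against 14.2% of the 422 miRNAs that rose and 5.21% that fell. Without overlap between the diets, 1 member lay above in HFHC-EV and 1 below, against 23.2% and 7.82% of all miRNAs. The median log2 fold change was 0.042 over all miRNAs tested, 0.30 over the 248 with a mean of 0.1 RPM or more and 0.51 over the 104 with 1 RPM or more, so miRNAs above these levels were mostly higher in HFHC-EV on the RPM scale. With TMM scaling of the libraries to each other, both directions held, with log2 fold changes of 0.68 for miR-30a-3p (limma adjusted p = 0.0491) and −0.66 for miR-30c-2-3p (limma adjusted p = 0.0301). With the replicate number as a block, edgeR called both (adjusted p = 0.0037 for miR-30a-3p and 8.1e-04 for miR-30c-2-3p), which it did not without it. Only the 2 called members reached 0.1 RPM on average.

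**Figure D2:**
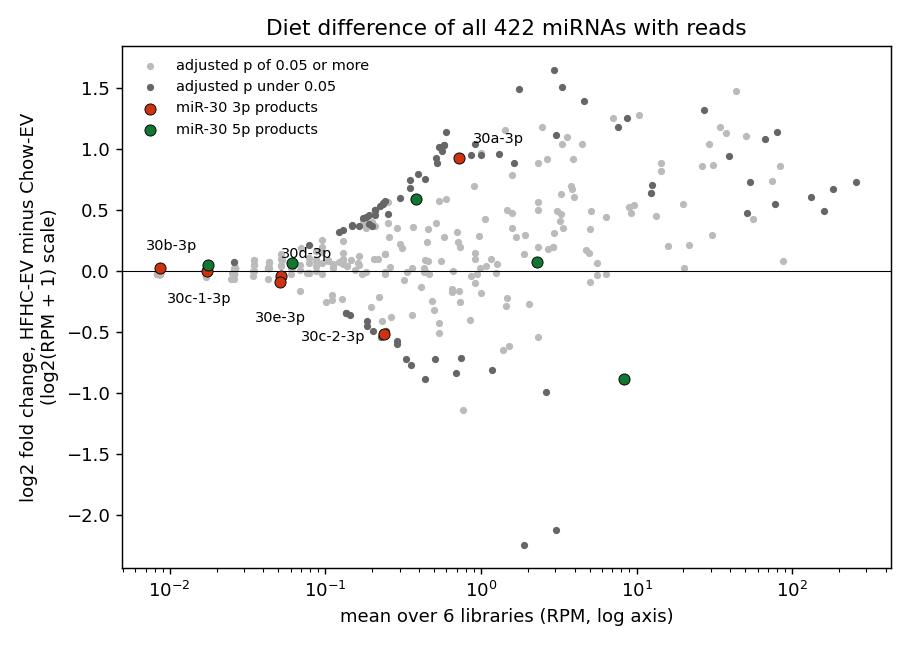
Log2 fold change (HFHC-EV minus Chow-EV, log2(RPM + 1) scale) against mean RPM on a log axis for the 422 miRNAs with reads; dark grey points passed an adjusted p of 0.05, red points are the 3p and green points the 5p products of miR-30. miR-30a-3p lies at 0.93 and miR-30c-2-3p at −0.52, and the other 4 members lie between −0.09 and 0.024.

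The 5p strands set the scale for these values. Summed, they reached 13.5 ± 1.12 RPM with chow and 8.60 ± 1.58 RPM with HFHC (SD, n = 3 each), against 0.818 ± 0.283 and 1.36 ± 0.242 RPM for the 3p strands. The 3p strands thus held 5.70% of the family's 842 reads in Chow-EV (exact 95% interval 4.23 to 7.49) and 13.6% of 572 in HFHC-EV (10.9 to 16.7), and within libraries 3.83% to 6.58% against 13.2% to 14.5%. Of the 5 tested 5p members, 1 rose and 1 fell in limma, against 14.2% and 5.21% of all 422 miRNAs. The riser was miR-30c-5p, known in mice to lower lipoprotein output by repressing the microsomal triglyceride transfer protein. It had 0, 2 and 4 reads in Chow-EV and 12, 9 and 17 in HFHC-EV (log2 fold change 0.59, SE 0.149, limma adjusted p = 0.0453). This call was lost without any single library (limma adjusted p from 0.0524 to 0.147), with TMM scaling (0.11), with a pseudocount of 10 RPM (0.0703) and in edgeR (0.389). miR-30d-5p, the most abundant miR-30 strand, fell from 11.0 ± 0.467 to 5.50 ± 0.342 RPM (log2 fold change −0.89, SE 0.161, limma adjusted p = 0.0157). This call was lost without Chow-EV replicate 1, Chow-EV replicate 2 or HFHC-EV replicate 2 (limma adjusted p = 0.0551, 0.0635 and 0.0641), with the libraries numbered 1 or those numbered 2 both left out (0.122 and 0.226) and in edgeR (0.0558). With TMM scaling the log2 fold change was −1.54.

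Reads of the strands of a hairpin were then set side by side; how evenly strands of different sequence were ligated and amplified was not tested. In the miR-30a hairpin the 3p strand had more reads under both diets. Reads of miR-30a-5p numbered 0, 0 and 2 in Chow-EV and 0, 0 and 5 in HFHC-EV, all from the libraries numbered 3. The 3p strand therefore held 11 of 13 reads in Chow-EV (84.6%, exact 95% interval 54.6 to 98.1) and 72 of 77 in HFHC-EV (93.5%, 85.5 to 97.9), shares that overlap. In the miR-30b and miR-30d hairpins nearly all reads came from the 5p strand. There the 3p strand held 1 of 268 reads (0.373%, 0.00945 to 2.06) and 6 of 974 (0.616%, 0.226 to 1.34) over the 6 libraries. The miR-30e hairpin had 6 reads of its 3p strand and 2 of its 5p strand. The 5p strands of miR-30a and miR-30e are near-identical, and miR-30b-5p and miR-30d-5p had no sequence to compare. How reads that match several 5p strands were assigned is not given in the sources here. The effect of that on these strand shares was not tested. Among the 74 hairpins with strands paired by name and at least 20 reads, the 3p strand had more reads in 27. The median 3p share was 15.9%.

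**Figure D3:**
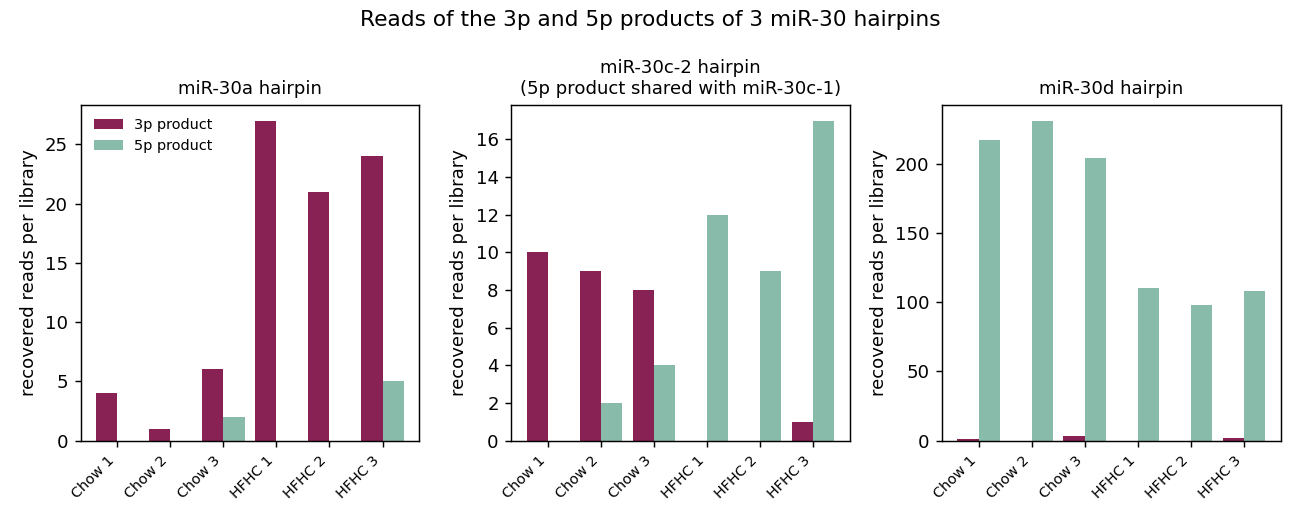
Recovered reads of the 3p (purple) and 5p (green) products in each library for the miR-30a, miR-30c-2 and miR-30d hairpins, 1 panel per hairpin with its own axis from 0. For miR-30a the 3p product leads in every library, for miR-30c-2 it leads in the Chow-EV libraries (27 reads against 6) and the 5p product in the HFHC-EV libraries (38 reads against 1), and for miR-30d the 5p product leads throughout.

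The balance of miR-30c-2-3p to miR-30c-5p differed between the diets. In Chow-EV the 3p strand had 10, 9 and 8 reads and miR-30c-5p had 0, 2 and 4. In HFHC-EV the 3p strand had 0, 0 and 1 reads and miR-30c-5p had 12, 9 and 17. The 3p share was thus 100%, 81.8% and 66.7% in the Chow-EV libraries and 0%, 0% and 5.56% in the HFHC-EV libraries, with no overlap. Pooled, it was 81.8% of 33 reads (exact 95% interval 64.5 to 93.0) and 2.56% of 39 (0.0649 to 13.5). Mature miR-30c-5p can also come from the miR-30c-1 hairpin, so its reads cannot be given to either hairpin. The shares are lower bounds for miR-30c-2 alone, and the major strand of that hairpin in HFHC-EV cannot be told from them. The miR-30c-1 3p strand, with 1 read per diet, is specific to the other hairpin.

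Arm balance was then tested as the log2 ratio of 3p to 5p RPM, with 1 RPM added to each arm. It covered 95 hairpins with reads whose 3p and 5p arms carry matching names. By exception, miR-30c-1 and miR-30c-2 were each set against miR-30c-5p, while other strands shared between hairpin copies, such as miR-24-3p, were left unpaired. The shares over all pairs thus rest on a stricter rule outside the family. Of the 6 miR-30 pairs, the ratio was called higher in HFHC-EV in 2 (miR-30a and miR-30d) and lower in 2 (miR-30c-2 and miR-30c-1), against 4.21% and 10.5% of pairs overall. With this pseudocount miR-30c-2 differed most within the family, by −1.11 (SE 0.132, limma adjusted p = 0.0066). It passed without each single library and with pseudocounts of 0.1 and 10 RPM. This difference joins the fall of miR-30c-2-3p (log2 fold change −0.52) to the rise of miR-30c-5p (0.59), which either miR-30c hairpin can give. The miR-30a difference was 0.86 (SE 0.135, limma adjusted p = 0.013), but miR-30a-5p had no read in 4 of the 6 libraries, so the ratio followed the rise of miR-30a-3p. The 3p share itself was 100%, 100% and 75% in the Chow-EV libraries and 100%, 100% and 82.8% in the HFHC-EV libraries, which overlap. With a pseudocount of 0.1 RPM the difference was 2.06 and did not pass (limma adjusted p = 0.0922), nor did it without Chow-EV replicate 1 (0.05002) or replicate 2 (0.0552). The miR-30d difference of 0.85 (limma adjusted p = 0.0078) came with a 3p share of 0.610% with chow and 0.629% with HFHC. Its 3p reads were so few that the ratio followed the fall of miR-30d-5p, and with a pseudocount of 0.1 RPM it did not pass (0.545). The miR-30c-1 difference of −0.59 (limma adjusted p = 0.0173) likewise equals the rise of the shared miR-30c-5p with the sign turned, and it was lost without Chow-EV replicate 1, Chow-EV replicate 2 or HFHC-EV replicate 1 (0.0673 to 0.0804). miR-30b and miR-30e did not pass (limma adjusted p = 0.987 and 0.389). No miR-30 pair passed once the libraries numbered 1, or those numbered 2, were both left out.

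**Figure D4:**
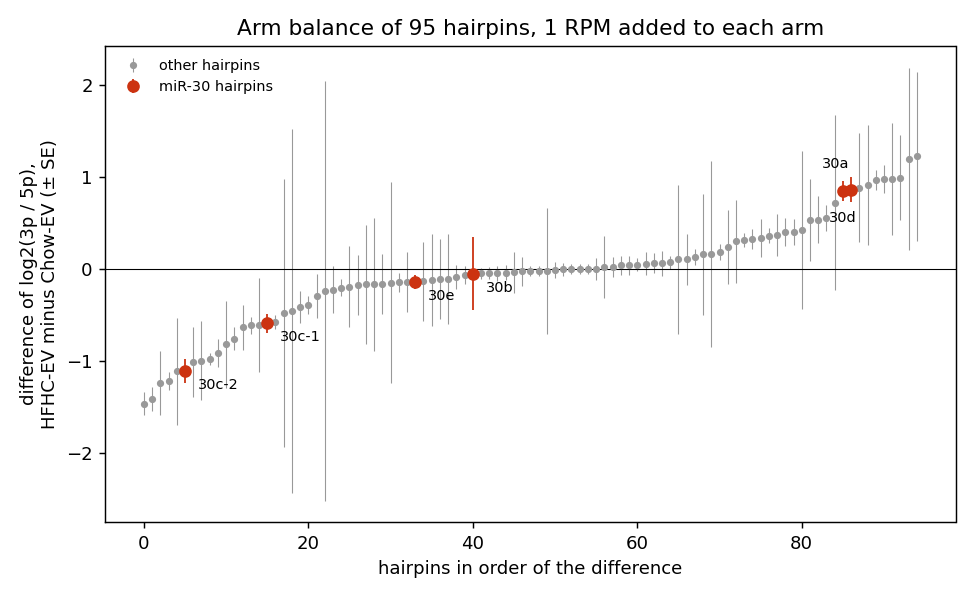
Difference between the diets (HFHC-EV minus Chow-EV) of the log2 ratio of 3p to 5p RPM, with 1 RPM added to each arm, for 95 hairpins in ascending order; bars are SE and red points are the miR-30 hairpins. miR-30c-2 lies near the low end at −1.11, and miR-30a and miR-30d lie near the high end at 0.86 and 0.85.

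Outside the family, the pairs whose ratio was called lower in HFHC-EV with the lowest adjusted p were miR-151 (3p share 19.8% with chow and 9.88% with HFHC), miR-125a (1.12% and 0.0518%) and miR-26b (1.35% and 0.958%). The 3p strand of miR-26b had only 1 read in Chow-EV and 3 in HFHC-EV, all from the libraries numbered 3. Its shares there were 4% and 2.59%, and 0% in every other library, so the diets overlapped. With so few 3p reads, the miR-26b ratio followed the rise of miR-26b-5p, from 1.24 RPM with chow to 5.39 RPM with HFHC. Those called higher were miR-423 (84.2% and 91.0%) and miR-193b, with 3 of 54 reads from the 3p strand in Chow-EV and 7 of 7 in HFHC-EV.

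The 3p strands of the neighbouring hairpins on chromosome 1 moved in opposite directions. On the RPM scale, miR-30a-3p was 6.72 times higher in HFHC-EV (counting interval 3.54 to 14.1) and miR-30c-2-3p 26.3 times lower (4.34 to 1077). That scale carries the higher miRNA total of HFHC-EV. The difference between these 3p responses was not tested. miR-30c-5p, which the miR-30c-2 hairpin also gives, was 6.50 times higher in HFHC-EV (2.73 to 18.8). It can come from the miR-30c-1 hairpin too, so these values do not show that the neighbouring hairpins as a whole differed. On chromosome 15, miR-30d-5p fell while its neighbour miR-30b-5p stood at 2.29 ± 1.47 RPM with chow and 2.32 ± 0.953 RPM with HFHC. miR-30b-5p instead varied with the replicate number, with 42, 18 and 74 reads in Chow-EV and 37, 31 and 65 in HFHC-EV. Its libraries spread well beyond counting error (variance over expectation 18.8 and 7.51), unlike miR-30a-3p, miR-30c-2-3p and miR-30d-5p in the diet where each was high. miR-384-5p, the only miRNA outside the family with the 5p seed among those matched, was seen solely in the libraries numbered 3, at 1.759 RPM with chow and 4.028 RPM with HFHC.

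The miRNAs whose pattern over the 6 libraries was most like that of miR-30a-3p, by Pearson's r of log2(RPM + 1) among 204 candidates with a mean of at least 0.1 RPM, were miR-423-3p (r = 0.993), miR-1981-5p (0.989), miR-7a-5p (0.986), miR-26b-5p (0.985) and miR-328-5p (0.980). They covered a wide range of levels: miR-423-3p averaged 15.2 RPM with chow and 39.2 RPM with HFHC, and miR-1981-5p 0.577 and 0.853. Those most like miR-30c-2-3p were miR-151-3p (r = 0.987), miR-709 (0.982), miR-125a-3p (0.971), miR-12185-5p (0.970) and miR-877-3p (0.968). Of these, miR-709 had 223 reads with chow and none with HFHC, miR-12185-5p 42 and none, miR-125a-3p 27 and 2, and miR-877-3p 21 and 1. With 6 libraries in 2 diets these correlations share the diet contrast and the libraries, and are given as a description.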

How the data were processed

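Small RNA of 18 to 30 bases was cut from a gel, ligated to adapters and amplified, per the labels' protocols. The authors deposited RPM, 1 table per library. The submitters' processing notes name Bowtie2 and GRCm38.p6, without its version; the miRNA annotation, the denominator and the handling of reads that match several miRNAs are not given in the sources here. In each library all values above 0 were whole multiples of 1 step within 0.1 of a read, so reads were recovered by division, with denominators of 19114759 to 20122476 reads.

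The test was limma-trend (limma 3.58.1, R 4.3.3) on log2(RPM + 1) over all 422 miRNAs with a read, without a filter or block, with Benjamini-Hochberg adjustment at 0.05. Arm ratios were fitted with limma over 95 pairs matched by name, with miR-30c-1 and miR-30c-2 each set against miR-30c-5p. Alternatives were other pseudocounts and filters, TMM scaling, edgeR (4.0.16) on recovered reads, the replicate block, leaving out libraries and, added after seeing the data, summing near-identical rows. Permutation tests were exact (scipy 1.17.1). The scripts were tested on simulated data. The members, lists and rules (all miR-30 rows, the 5 most similar miRNAs, markers, and the 3 called arm pairs per direction with the lowest adjusted p) were chosen with earlier results of these data known.

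After each diet's mean was taken off every miRNA, same-numbered libraries of the diets correlated at 0.903, 0.870 and 0.933 across the 422 miRNAs, and differently numbered ones at −0.792 to 0.130. The data thus pair the samples by number, although no label says what a number shares. Every pair of libraries differed by more than sampling noise (lowest chi-square 12.3 per degree of freedom).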

Additional observations from a re-analysis of the deposited data

How the results depend on the processing

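Of the 6 miR-30 3p members, 2 were called; 0 were called by edgeR on recovered reads, 0 when the libraries numbered 1 or those numbered 2 were both left out, and 1 to 2 without single libraries. miR-30a-3p kept its direction in all 18 alternatives and passed in 14, both counts including the fit with miR-30e-3p reads summed in. Its log2 fold change was 2.03 in edgeR (adjusted p = 0.164), 0.84 to 1.00 without single libraries, and 0.89 with either of these pairs left out; adjusted p ran from 0.0037 to 0.164. miR-30c-2-3p kept its direction in 17 and passed in 14, with log2 fold changes of −5.01 in edgeR and −0.48 and −0.51 with the pairs numbered 1 and 2 left out. With a mean of at least 1 RPM no 3p member was tested. Of the miR-30 arm pairs, 4 were called; 2 were with a pseudocount of 0.1 RPM, 2 to 4 without single libraries, and 0 without both libraries numbered 1 or numbered 2. Over all miRNAs limma called 0 in these last settings (63 and 55 higher at an unadjusted p under 0.05, 28 and 24 lower). Without both libraries numbered 3 it called 64 higher and 17 lower, miR-30a-3p and miR-30c-2-3p among them, and 4 miR-30 arm pairs. Over all arm pairs, 1 was called higher and 8 lower of 95 with a pseudocount of 0.1 RPM. With single libraries left out, 3 to 4 were higher and 6 to 13 lower. Of 92 pairs without both libraries numbered 1, 0 were higher and 0 lower. Of 95 pairs without those numbered 2, 0 were higher and 5 lower, and of 80 without those numbered 3, 6 and 14. The cause of the difference between these settings was not tested.

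The replicate block changed none of the limma calls of the 3p members or miR-30 arm pairs (log2 fold change of miR-30a-3p 0.93, limma adjusted p = 0.0124 with the block). Over all miRNAs it moved the calls from 60 higher and 22 lower to 94 and 27, and in edgeR from 0 and 2 (45 and 40 at an unadjusted p under 0.05) to 55 and 50. TMM scaling gave 25 higher and 22 lower, and single libraries left out gave fewer higher calls, down to 11 without Chow-EV replicate 2. A mean of at least 1 RPM left 25 and 5.

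Uncalled values changed sign. miR-30b-5p had a log2 fold change of −0.41 with TMM scaling, with or without the block, −0.70 in edgeR, −0.64 in edgeR with the block, −0.12 without both libraries numbered 2 and −0.27 to 0.40 without single libraries. Without single libraries miR-30a-5p ran from −0.047 to 0.12, miR-30d-3p from −0.093 to 0.012 and the miR-30b arm ratio from −0.38 to 0.30. The latter was 0.044 with a pseudocount of 0.1 RPM and 0.16 without both libraries numbered 2. The cause was not tested.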
